A study of Mus musculus with 4 samples.

Results

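The CSF1 receptor axis was followed here through 6 genes of the 32285 in each matrix, taken by gene symbol: the receptor gene Csf1r, its ligand genes Csf1 and Il34, the transcription factor gene Spi1, and the fractalkine receptor and ligand genes Cx3cr1 and Cx3cl1. The study profiled the brain hemisphere opposite an intracranial injection by droplet single-cell RNA sequencing, 2 weeks after the injection, in old and in young C57BL/6 mice. CT2A-GFP-luc cells, a mouse glioblastoma line that carries a fluorescent and a luciferase reporter, were compared with an injection of saline, and old age with young age. Each of the 4 groups was 1 library. The old tumour library came from mice of 93 weeks injected with 1000 CT2A cells, and the old sham library from mice of 93 weeks injected with phosphate-buffered saline. The young tumour library came from mice of 8 weeks injected with 1000 CT2A cells, and the young sham library from mice of 8 weeks injected with phosphate-buffered saline. The strain field of the labels ends in a different digit for each library, while the series text names C57BL/6 for all of them. The number of mice behind each library is not given in the sources used here. With 1 library per group there is no replicate and no test: intervals are exact 95% intervals of counting error, and differences between mice and between library preparations cannot be told apart from those of age or tumour.

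CSF1R is a receptor tyrosine kinase on microglia and macrophages, and its signal keeps microglia alive in the adult brain. CSF1 and interleukin-34 are its ligands, and in mice neurons are known as a main source of interleukin-34 and glia as a main source of CSF1. PU.1, the product of Spi1, is the factor that directs myeloid cell fate and activates Csf1r. Fractalkine, the product of Cx3cl1, is a membrane-bound chemokine of neurons and endothelium that can be shed, and CX3CR1 is its receptor on microglia.

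Csf1 lies at chr3:107741048-107760469 on the minus strand, Il34 at chr8:110741829-110805924 on the minus strand, Spi1 at chr2:91082390-91115756 on the plus strand, Cx3cr1 at chr9:119901616-120069879 on the minus strand and Cx3cl1 at chr8:94772009-94782427 on the plus strand of GRCm38, all annotated as protein coding. The 250 bases before the RefSeq start of Csf1, Cx3cl1 and Cx3cr1 (GRCm38.p6) are shown because PU.1 is a member of the set, so that its binding core can be looked for beside the genes that were high or low in Spi1-expressing cells. The windows are chr3:107760470-107760719 on the minus strand for Csf1, chr8:94771930-94772179 on the plus strand for Cx3cl1 and chr9:120068297-120068546 on the minus strand for Cx3cr1, each written 5′ to 3′ along its gene, with matches in capitals. The letters searched on both strands were GAGGAA, the PU.1 core, and TATAAA, the TATA box. They do not overlap each other in the windows shown.
Csf1: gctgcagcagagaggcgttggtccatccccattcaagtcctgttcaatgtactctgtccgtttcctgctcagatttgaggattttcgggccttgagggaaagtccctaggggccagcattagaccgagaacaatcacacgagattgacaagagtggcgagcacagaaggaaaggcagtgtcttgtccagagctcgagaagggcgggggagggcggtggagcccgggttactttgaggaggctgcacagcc
Cx3cl1: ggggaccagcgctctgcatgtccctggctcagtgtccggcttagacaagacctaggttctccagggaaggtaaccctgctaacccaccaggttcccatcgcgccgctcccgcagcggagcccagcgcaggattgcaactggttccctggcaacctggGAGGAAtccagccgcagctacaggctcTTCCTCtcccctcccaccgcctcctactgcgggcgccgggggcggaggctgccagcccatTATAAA
Cx3cr1: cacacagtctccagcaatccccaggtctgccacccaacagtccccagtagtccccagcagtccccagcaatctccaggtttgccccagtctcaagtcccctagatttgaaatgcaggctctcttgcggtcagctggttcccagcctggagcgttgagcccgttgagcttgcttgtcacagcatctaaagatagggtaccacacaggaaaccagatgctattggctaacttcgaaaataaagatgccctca
GAGGAA was found in the Cx3cl1 window on the plus strand at -93 to -88 and on the minus strand at -66 to -61, counted from the start. It occurs in 23.3% of the 32851 windows of this length. TATAAA was found in the Cx3cl1 window at -6 to -1 and occurs in 12.4% of windows. By the gene positions given above, all of these matches lie inside Cx3cl1 and not before it. Neither GAGGAA nor TATAAA was found in the Csf1 or the Cx3cr1 window. A match is a match of letters only, and its absence says only that these letters are not in the window.

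The libraries held 62726818 to 76652484 unique molecular identifiers (UMIs, counted molecules), and 9529 to 10571 cells per library entered the analysis, 40390 in all, with a median of 3773 to 4859 UMIs per cell. Cells were put into 19 classes when they held at least 3 of the 6 markers of a class and at least 2 more than of any other. Cells with at least 2 Hmga2 UMIs were set apart first, and 9.703% of cells entered no class. No member gene served as a marker. Between 27 and 53 cell barcodes were shared by each pair of libraries. Levels are CPM, the UMIs of a gene per 1000000 UMIs of a class in a library, and classes are called by the markers with the ending -like. A level is called higher or lower only where the ratio of CPM passed 1.5 in either direction.

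Csf1r and Cx3cr1 UMIs lay mostly in microglia-like cells. Microglia-like cells held 91.51% of the Csf1r UMIs in the old tumour library, 94.22% in the old sham library, 87.13% in the young tumour library and 94.20% in the young sham library. They held 95.32%, 96.85%, 90.85% and 96.08% of the Cx3cr1 UMIs in the same order of libraries. The gate rested on 6 markers, among them P2ry12, Tmem119 and Siglech. Their presence in the class was set by the gate and is no separate evidence of what these cells are.

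Csf1r is a protein-coding gene at chr18:61100598-61132149 on the plus strand of GRCm38. Microglia-like cells had 2071, 2122, 2359 and 2693 CPM of Csf1r in the old tumour, old sham, young tumour and young sham libraries, from 2391, 2495, 2982 and 3652 cells. At least 1 Csf1r UMI was present in 98.54%, 99.48%, 99.16% and 98.77% of them. In oligodendrocyte-like cells, which should lack the receptor, the share with a Csf1r UMI was 4.846%, 4.758%, 6.323% and 8.155%. The median depth was 4681, 4949, 3196 and 3620 UMIs in microglia-like cells and 5834, 5085, 5628 and 6393 UMIs in oligodendrocyte-like cells. What gave the low share was not tested. Csf1r in oligodendrocyte-like, astrocyte-like and endothelial cell-like cells ranged from 8.349 to 21.39 CPM over the libraries, and is not read as expression by these cells.

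Border macrophage-like cells, the macrophages of the meninges and perivascular spaces, had Csf1r at 1552, 1681, 1305 and 1536 CPM in the old tumour, old sham, young tumour and young sham libraries, from 115, 101, 134 and 71 cells. Their Cx3cr1 stood at 617.9, 585.5, 525.5 and 334.2 CPM, with the young sham library below the other 3. In young brains Cx3cr1 was higher in the tumour library than in the sham library, at a ratio of 1.573 (1.242 to 2.008). Among 2435 measured genes of this class, 9.94% were higher in that comparison. Between sham libraries it was higher in the old than in the young library, at 1.752 (1.374 to 2.251), as were 16.5% of measured genes.

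Monocyte-like cells reached 50 cells in the young tumour library alone, with 136 cells, and had 344.4 CPM of Csf1r and 160.5 CPM of Cx3cr1 there. The young tumour library also held 525 cells of an unnamed myeloid cluster led by Cxcl9, an interferon-induced chemokine gene, against 27 in the old tumour, 39 in the old sham and 52 in the young sham library. These cells had 419.9 CPM of Csf1r and 580.3 CPM of Spi1 in the young tumour library. An unnamed cluster led by Mgl2, a macrophage lectin gene, and MHC class II genes had Csf1r at 992.7, 886.7, 720.1 and 750.5 CPM in the old tumour, old sham, young tumour and young sham libraries.

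Spi1 was present in blood-derived as well as brain myeloid cells. Microglia-like cells had Spi1 at 466.6, 485.3, 491.0 and 506.9 CPM and border macrophage-like cells at 397.0, 369.8, 364.7 and 392.3 CPM in the old tumour, old sham, young tumour and young sham libraries. Neutrophil-like cells had Spi1 at 821.9 CPM in the old tumour library from 59 cells and at 600.9 CPM in the young sham library from 114 cells, while Csf1r stood at 41.69 and 77.23 CPM in these cells. B cell-like cells had Spi1 at 159.9 CPM in the old tumour library from 55 cells and at 189.6 CPM in the young sham library from 86 cells. Microglia-like cells held 57.57% of the Spi1 UMIs in the young tumour library, against 85.53% in the young sham library, and cells in no class held 29.04% against 5.597%. Spi1 in astrocyte-like cells was 12.97 CPM in the young tumour library and 3.369 to 4.754 CPM in the other 3. Of those young tumour UMIs 68.75% lay in 5 cells, and monocyte markers summed to 17.67 CPM in that class and library, against 1.534 to 2.299 CPM in the other 3. The part of such cells in the Spi1 level was not tested.

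**Figure D1:**
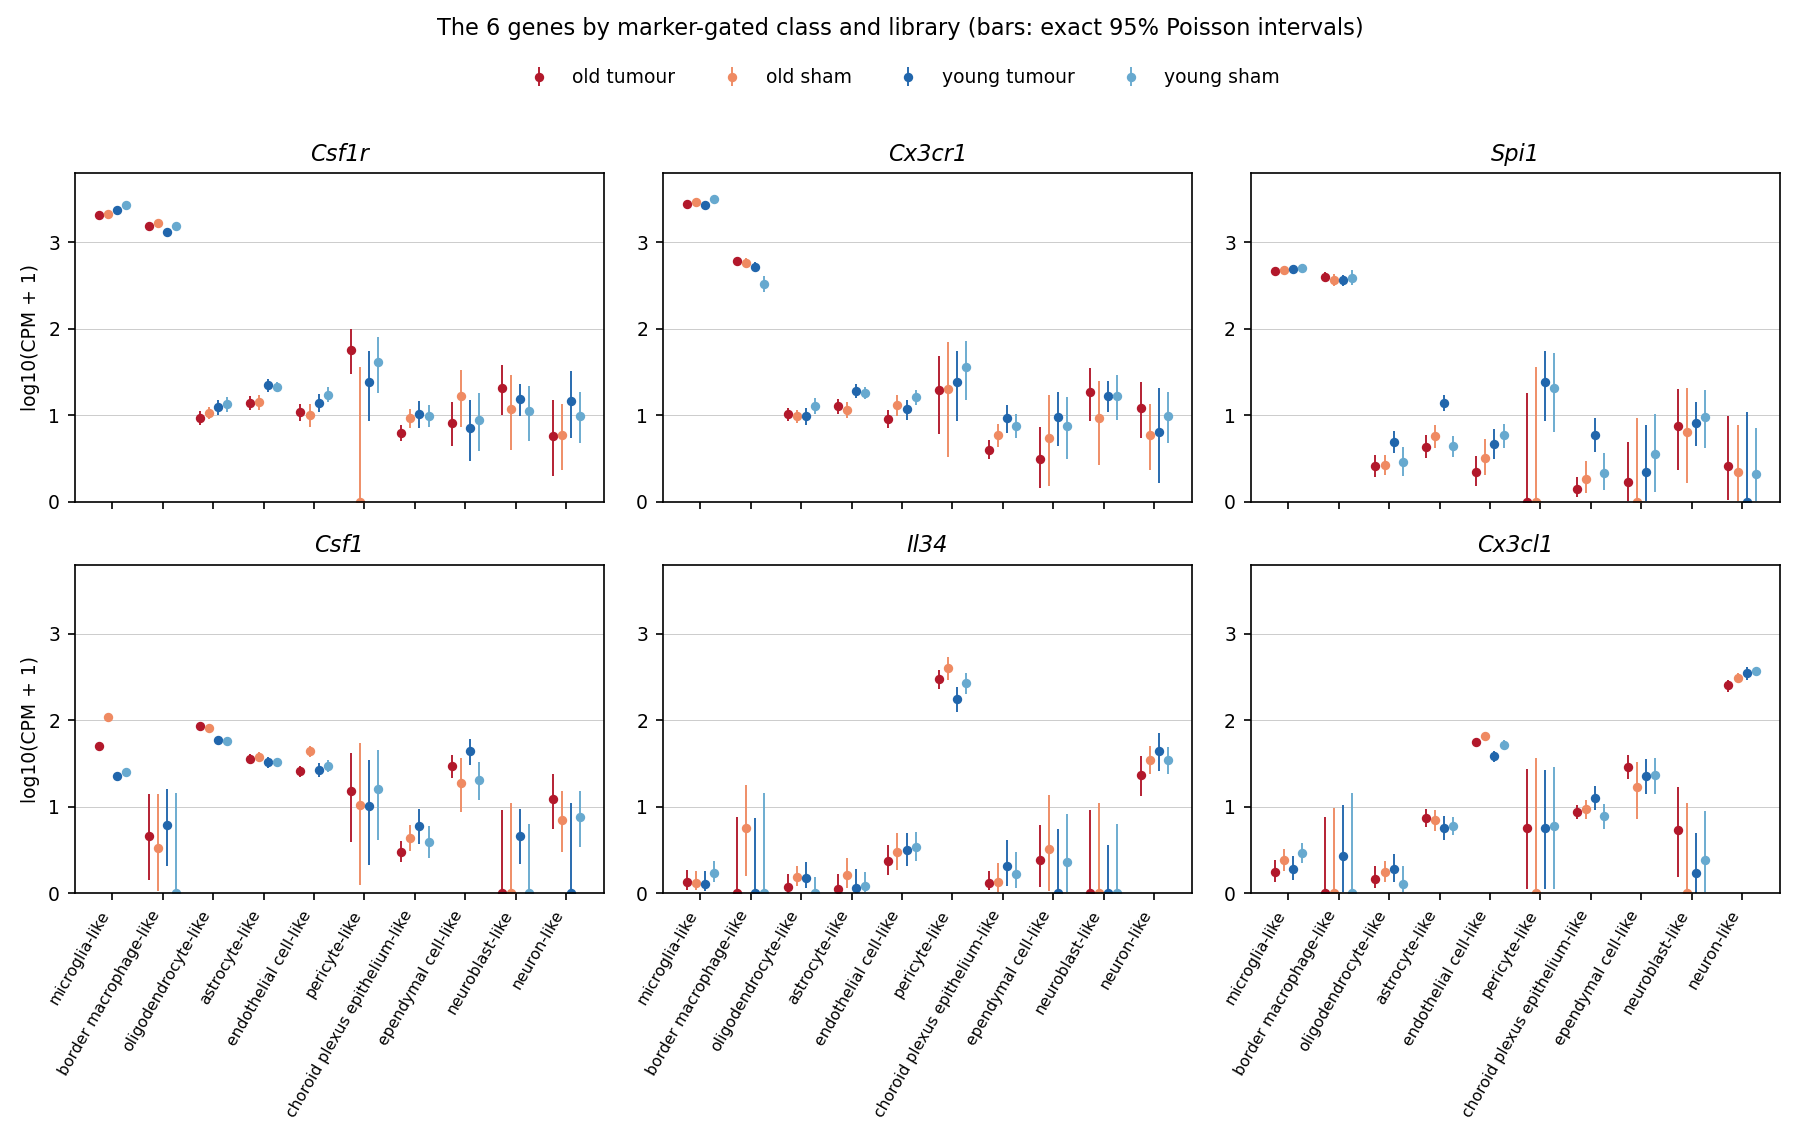
Level of each gene (log10 of CPM plus 1) in 10 marker-gated classes with at least 50 cells in every library, by library. Csf1r, Cx3cr1 and Spi1 stand high in microglia-like and border macrophage-like cells, Il34 in pericyte-like and neuron-like cells, Cx3cl1 in neuron-like and endothelial cell-like cells, and Csf1 in microglia-like, oligodendrocyte-like and astrocyte-like cells, among others.

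Csf1, the ligand gene with the most UMIs (8984 in all cells), had several sources, and microglia-like cells were among them. Oligodendrocyte-like cells had 85.44, 81.62, 58.04 and 57.06 CPM in the old tumour, old sham, young tumour and young sham libraries. Both old libraries were above both young ones, but the ratios stayed within 1.5-fold, at 1.43 (1.272 to 1.611) for old sham over young sham and 1.472 (1.313 to 1.652) for old tumour over young tumour. Astrocyte-like cells had 35.06, 36.96, 31.61 and 32.29 CPM in the same libraries, and differed by less than 1.5-fold in every comparison.

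Endothelial cell-like cells had Csf1 at 24.85, 42.83, 25.87 and 28.85 CPM in the old tumour, old sham, young tumour and young sham libraries. The old sham library stood above the other 3. The level was lower in the old tumour than in the old sham library, at a ratio of 0.5802 (0.4648 to 0.724), as were 1.4% of 6721 measured genes in that comparison. Border macrophage-like cells held 2, 1, 3 and 0 Csf1 UMIs in the 4 libraries in the same order. The 0 among 71 young sham cells allows up to 10.9 CPM, at 3 UMIs.

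Il34 was the scarcest gene, with 1315 UMIs in all cells. Pericyte-like cells, the mural cells of capillaries, had the highest level, at 301.0, 404.2, 177.0 and 270.8 CPM in the old tumour, old sham, young tumour and young sham libraries, from 64, 42, 38 and 54 UMIs. It was higher in the old tumour than in the young tumour library, at 1.701 (1.121 to 2.612), as were 6.97% of 1147 measured genes. The young tumour over young sham ratio was 0.6534 with an interval of 0.4198 to 1.008, which spans equality. Neuron-like cells had Il34 at 22.54, 34.29, 43.57 and 34.29 CPM, from 14, 28, 16 and 31 UMIs. Microglia-like cells held 4, 4, 3 and 10 Il34 UMIs.

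The gate left aside 574 cells with at least 5 pericyte and at least 5 endothelial markers. They held 78, 133, 106 and 190 Il34 UMIs in the old tumour, old sham, young tumour and young sham libraries, more than the pericyte-like cells in each library, at 46.18, 76.27, 71.95 and 70.86 CPM. Their median depth was 10328 to 13266 UMIs, against 1566 to 2039 UMIs in pericyte-like cells. Whether they are pairs of cells was not tested. The old tumour over young tumour difference of pericyte-like cells was not seen in them, since the old tumour value was the lowest of the 4.

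Cx3cl1 was highest in neuron-like cells, at 252.8, 308.6, 351.3 and 375.0 CPM in the old tumour, old sham, young tumour and young sham libraries, from 101, 96, 56 and 99 cells. All 4 ratios between libraries lay within 1.5-fold, the furthest being old tumour over young tumour at 0.7195 (0.5663 to 0.9153). Endothelial cell-like cells had 55.25, 64.5, 37.5 and 51.4 CPM, with the young tumour library lowest, and old tumour over young tumour was 1.474 (1.225 to 1.779). Microglia-like cells, which carry the receptor, held 9, 18, 10 and 26 Cx3cl1 UMIs. Adult neurons are few in these libraries (56 to 101 neuron-like cells), so the ligand shares below are shares of the cells recovered, not of the brain.

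A large share of ligand UMIs in the young tumour library came from cells set apart by Hmga2, a chromatin gene silent in most adult tissue. There were 431 such cells in the young tumour library, 0 in the old tumour and young sham libraries and 1 in the old sham library, and their median depth was 25774 UMIs. They held 567 Csf1 UMIs (43.74 CPM), 567 Cx3cl1 UMIs (43.74 CPM) and 131 Il34 UMIs (10.11 CPM). These were 30.19%, 48.63% and 34.2% of the library's UMIs of Csf1, Cx3cl1 and Il34. Of all 62847389 UMIs in the cells of that library, these cells held 12962657, and the shares are not corrected for this depth.

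**Figure D2:**
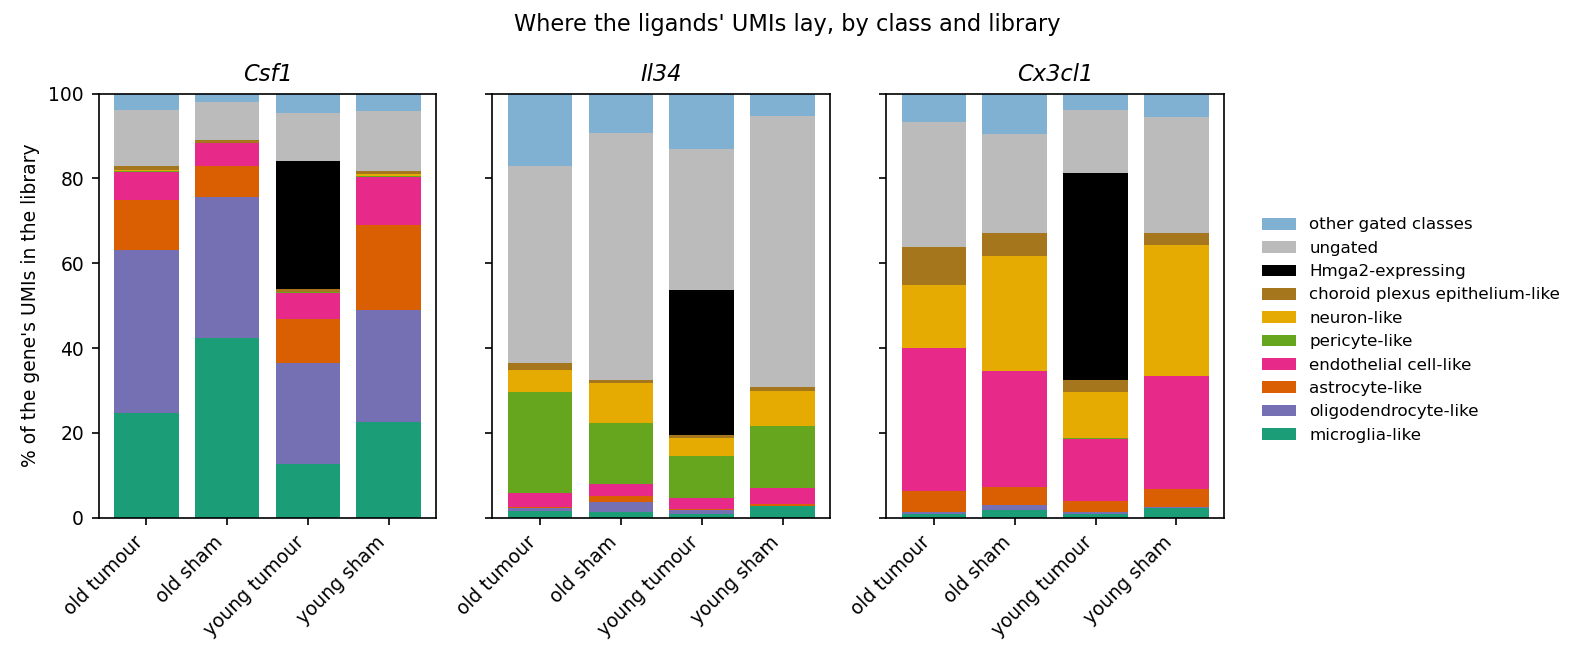
Share of the UMIs of Csf1, Il34 and Cx3cl1 (% of the gene's UMIs in a library) by class of cell, for each library. Microglia-like cells held 42.36% of the Csf1 UMIs of the old sham library and 12.67 to 24.6% of those of the other 3, and Hmga2-expressing cells held part of all 3 ligands in the young tumour library.

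Within microglia-like cells, 4 of the 6 genes were measured: a gene needed 100 UMIs or more summed over the libraries and 20 CPM or more in at least 1. Csf1 alone passed 1.5-fold. In the comparison of old tumour with old sham it was 1 of the 4 measured members, against 4.7% of 6042 measured genes past 1.5-fold in either direction. In young tumour over young sham 0 of 4 passed, against 3.69% of genes. In old sham over young sham 1 of 4 passed, against 7.81% of genes, and in old tumour over young tumour 1 of 4 passed, against 3.28% of genes.

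Csf1 in microglia-like cells was 50.02, 107.9, 21.7 and 24.31 CPM in the old tumour, old sham, young tumour and young sham libraries, from 589, 1374, 238 and 332 UMIs. Both old libraries stood above both young ones, and the old sham library above all. Old sham over young sham was 4.44 (3.935 to 5.02), which placed Csf1 at percentile 99.6 of the measured genes, and old tumour over young tumour was 2.305 (1.979 to 2.691), at percentile 99.5. Old tumour over old sham was 0.4634 (0.42 to 0.5107), at percentile 1.06. Young tumour over young sham was 0.8926 (0.7525 to 1.057). On the log2 scale this was -0.16, against -0.54 after each cell was thinned to 1000 UMIs, both within the 1.5-fold bound. The log2 ratio of tumour to sham was lower in old than in young brains by a difference of -0.95 (-1.22 to -0.67).

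The share of microglia-like cells with a Csf1 UMI was 11.0%, 16.95%, 4.93% and 5.422% in the old tumour, old sham, young tumour and young sham libraries. After each cell was thinned to 1000 UMIs, which left out 51, 61, 128 and 162 shallower cells, it was 3.333%, 6.204%, 1.472% and 1.834%, in the same order of libraries. The 5 cells with the most Csf1 UMIs held 10.87%, 10.77%, 15.97% and 14.76% of the Csf1 UMIs of their library. Of the microglia-like cells with a Csf1 UMI, 263 of 263, 422 of 423, 147 of 147 and 197 of 198 also had a Csf1r UMI. As 98.54 to 99.48% of all microglia-like cells had a Csf1r UMI, such a share would be found in nearly any subset of them.

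**Figure D3:**
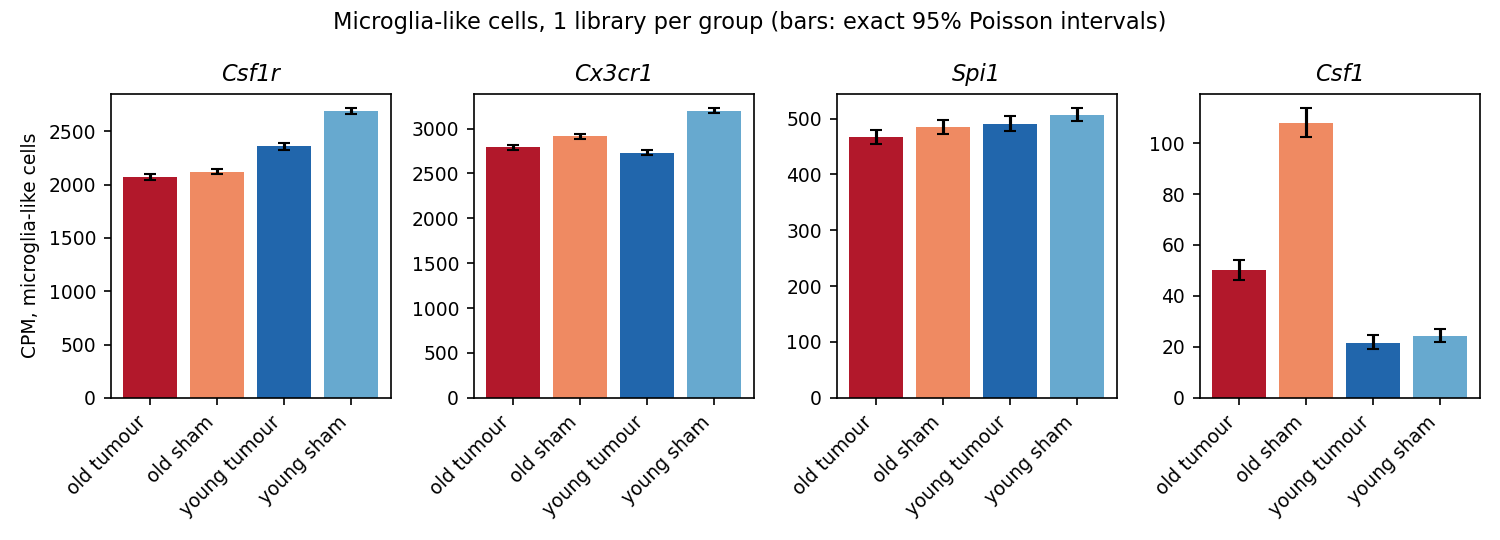
Level of Csf1r, Cx3cr1, Spi1 and Csf1 (CPM) in the microglia-like cells of each library, 1 library per group, with exact 95% Poisson intervals. Csf1 ranges from 21.7 to 107.9 CPM, while Csf1r ranges from 2071 to 2693 CPM, Cx3cr1 from 2732 to 3200 CPM and Spi1 from 466.6 to 506.9 CPM.

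The receptor genes stayed within 1.5-fold between the libraries in microglia-like cells. Csf1r was 0.9758 (0.959 to 0.9929) in old tumour over old sham, 0.8759 (0.862 to 0.8899) in young tumour over young sham, 0.7882 (0.7759 to 0.8007) in old sham over young sham and 0.8782 (0.8629 to 0.8937) in old tumour over young tumour. These ratios placed Csf1r at percentiles 38.5, 14.6, 14.0 and 12.2 of the measured genes, in the same order. The level of Csf1r was highest in the young sham library. Without the clusters led by Cxcl9 and Mgl2, which held 2.616% and 5.768% of the young tumour microglia-like cells, the young tumour over young sham difference of Csf1r was -0.02 on the log2 scale, against -0.19 with them. In the young tumour library border macrophage markers summed to 173.2 CPM in microglia-like cells, against 16.26 to 21.06 CPM in the other 3, and monocyte markers to 69.12 CPM against 10.45 to 16.77 CPM.

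Cx3cr1 in microglia-like cells was 2792, 2915, 2732 and 3200 CPM in the old tumour, old sham, young tumour and young sham libraries. Its lowest ratio was 0.8538 (0.8413 to 0.8665) in young tumour over young sham, at percentile 10.7 of the measured genes. The highest was 1.022 (1.006 to 1.038) in old tumour over young tumour, at percentile 65.2. Spi1 ratios lay between 0.9503 and 0.9687 in the 4 comparisons. The median log2 ratio over all measured genes was 0.03, -0.03, -0.06 and -0.02 in old tumour over old sham, young tumour over young sham, old sham over young sham and old tumour over young tumour.

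**Figure D4:**
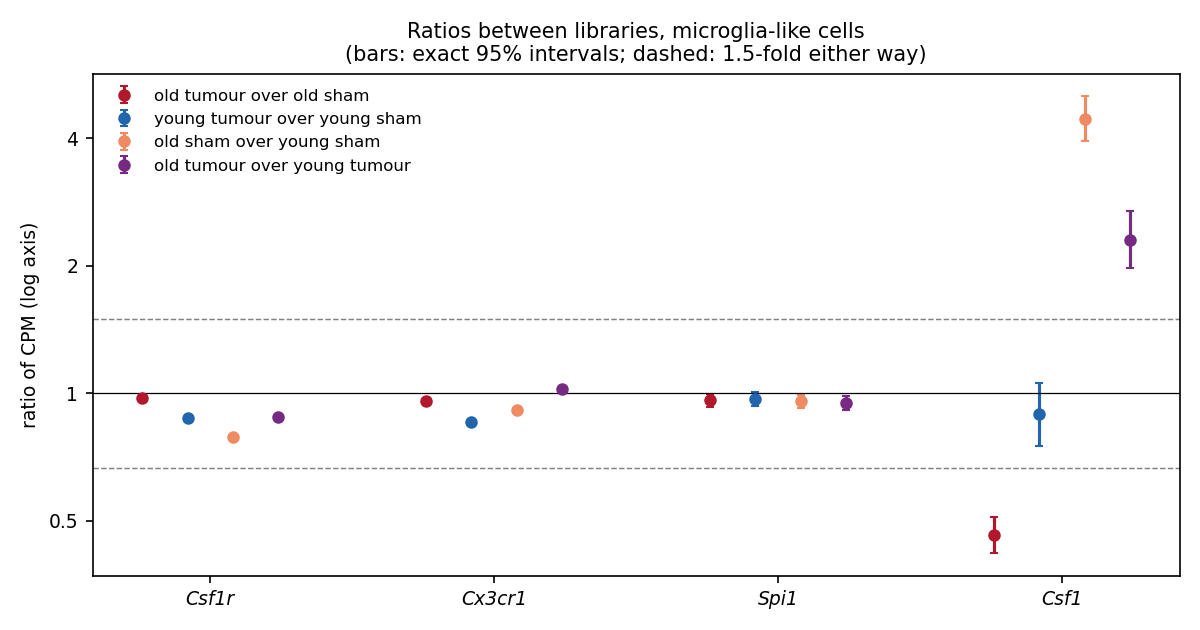
Ratio of CPM between libraries (log axis) for Csf1r, Cx3cr1, Spi1 and Csf1 in microglia-like cells, with exact 95% intervals of counting error and dashed lines at 1.5-fold in either direction. Csf1 lies outside the dashed lines in 3 of 4 comparisons, at 0.4634, 4.44 and 2.305, and the other 3 genes lie inside them in all 4.

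Microglia-like cells differed between libraries in their cytokine and immediate early genes, which also respond to tissue dissociation. Immediate early genes summed to 17407, 34607, 12758 and 26602 CPM in the old tumour, old sham, young tumour and young sham libraries, and cytokine and chemokine genes to 3318, 7830, 1626 and 2265 CPM. Of 21 immediate early genes, 16 were lower in old tumour than in old sham, against 3.1% of all measured genes, and 20 were lower in young tumour than in young sham, against 1.31%. Their median log2 ratios were -1.11 and -1.28, against 0.03 and -0.03 over all measured genes. Of 10 measured cytokine and chemokine genes, 10 were higher in old sham than in young sham, against 4.42% of all measured genes, with a median log2 ratio of 1.79 against -0.06. Tnf was at 610.3 CPM in old sham and 62.76 CPM in young sham. Of the microglia-like cells, 8.783%, 46.81%, 1.241% and 3.505% lay in a cluster with Tnf as its leading gene. A cluster with Slc2a5 in that place held 44.88%, 15.91%, 48.63% and 37.65%. In old sham over young sham, 7 of the 21 genes listed as immediate early were higher and 3 lower. The shares of all measured genes were 4.42% and 3.39%. The lower ones were Klf2, Hspa1a and Hspa1b, of which Hspa1a and Hspa1b are heat shock genes that the list also holds. In young tumour over young sham, 4 of the 10 measured cytokine and chemokine genes were higher and 5 lower. Of all measured genes, 3.69% passed 1.5-fold in either direction there. Csf1 was highest in the old sham library, where the summed level of each list was highest, although 6 of the 21 immediate early genes were highest in the young sham library. The part of this state, or of dissociation, in the Csf1 differences was not tested.

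Microglia-like cells were also split by Tnf, Il1a, Il1b, Ccl3 and Ccl4 into cytokine-expressing cells, with a UMI of at least 3 of the 5, and quiet cells, with at most 1. Cytokine-expressing cells were 18.32%, 53.87%, 5.265% and 9.584% of the microglia-like cells of the old tumour, old sham, young tumour and young sham libraries. Csf1 was higher in them than in quiet cells of the same library. In cytokine-expressing cells it was 128.6, 150.2, 71.45 and 75.48 CPM, and in quiet cells 20.77, 30.59, 13.76 and 13.43 CPM. The ratio was 6.191 (5.089 to 7.564), 4.911 (3.924 to 6.22), 5.194 (3.858 to 6.961) and 5.621 (4.376 to 7.222). Median depth was 4597 to 6002 UMIs in cytokine-expressing cells and 3079 to 4343 UMIs in quiet cells. For comparisons between or within these states no share of all measured genes past 1.5-fold is given. Whether a member stands out from other genes there cannot be told.

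The age ratio of Csf1 was nearer to 1 within each state than over all microglia-like cells and stayed above 1. In quiet cells old sham over young sham was 2.278 (1.705 to 3.029) and old tumour over young tumour 1.51 (1.174 to 1.945), and in cytokine-expressing cells these were 1.99 (1.662 to 2.399) and 1.8 (1.41 to 2.322). The tumour difference in old brains was 0.6791 (0.5141 to 0.9022) in quiet cells and 0.8562 (0.7596 to 0.9632) in cytokine-expressing cells, both within 1.5-fold. Without the clusters led by Cxcl9 and Mgl2, old tumour over young tumour came to 1.414 (1.083 to 1.849) in quiet cells. In cytokine-expressing cells it came to 1.445 (1.063 to 2.004), and both lay within 1.5-fold. Old tumour over old sham without these clusters was 0.661 (0.4949 to 0.8881) in quiet cells, just past the bound. It was 0.8456 (0.7474 to 0.9547) in cytokine-expressing cells. In young brains, with these clusters kept, the tumour over sham ratio was 1.025 (0.7904 to 1.327) in quiet cells. In cytokine-expressing cells it was 0.9466 (0.7082 to 1.258).

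Csf1r and Cx3cr1 stood below their quiet level in cytokine-expressing cells. Csf1r in cytokine-expressing cells was 1710, 1997, 1404 and 2253 CPM, and in quiet cells 2236, 2409, 2570 and 2826 CPM, in the old tumour, old sham, young tumour and young sham libraries. The ratio of cytokine-expressing to quiet cells passed 1.5-fold in the young tumour library alone, at 0.5463 (0.5187 to 0.575), where Cx3cr1 was lower too, at 0.5063 (0.4817 to 0.5319). In the other 3 libraries the ratios lay between 0.7605 and 0.8289 for both genes. In cytokine-expressing cells both receptors were also lower in young tumour than in young sham, Csf1r at 0.623 (0.5873 to 0.6606) and Cx3cr1 at 0.5736 (0.5422 to 0.6065), on 157 young tumour and 350 young sham cells. Without the clusters led by Cxcl9 and Mgl2, 101 young tumour and 343 young sham cells were left, and 3 of these 4 ratios lay within 1.5-fold. Cytokine-expressing over quiet was then 0.688 (0.6455 to 0.7327) for Csf1r, and 0.6627 (0.6242 to 0.703) for Cx3cr1, just past the bound. Young tumour over young sham was then 0.8417 (0.7849 to 0.902) for Csf1r and 0.8123 (0.761 to 0.8666) for Cx3cr1. Old tumour over young tumour in cytokine-expressing cells, with these clusters kept, was 1.518 (1.439 to 1.602) for Cx3cr1, just past the bound. For Csf1r it was 1.218 (1.15 to 1.29). Without these clusters it was 1.089 (1.023 to 1.161) for Cx3cr1 and 0.9098 (0.85 to 0.9744) for Csf1r. Spi1 ratios between the states lay between 0.9079 and 0.9915. These ratios too have no share of all measured genes beside them.

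**Figure D5:**
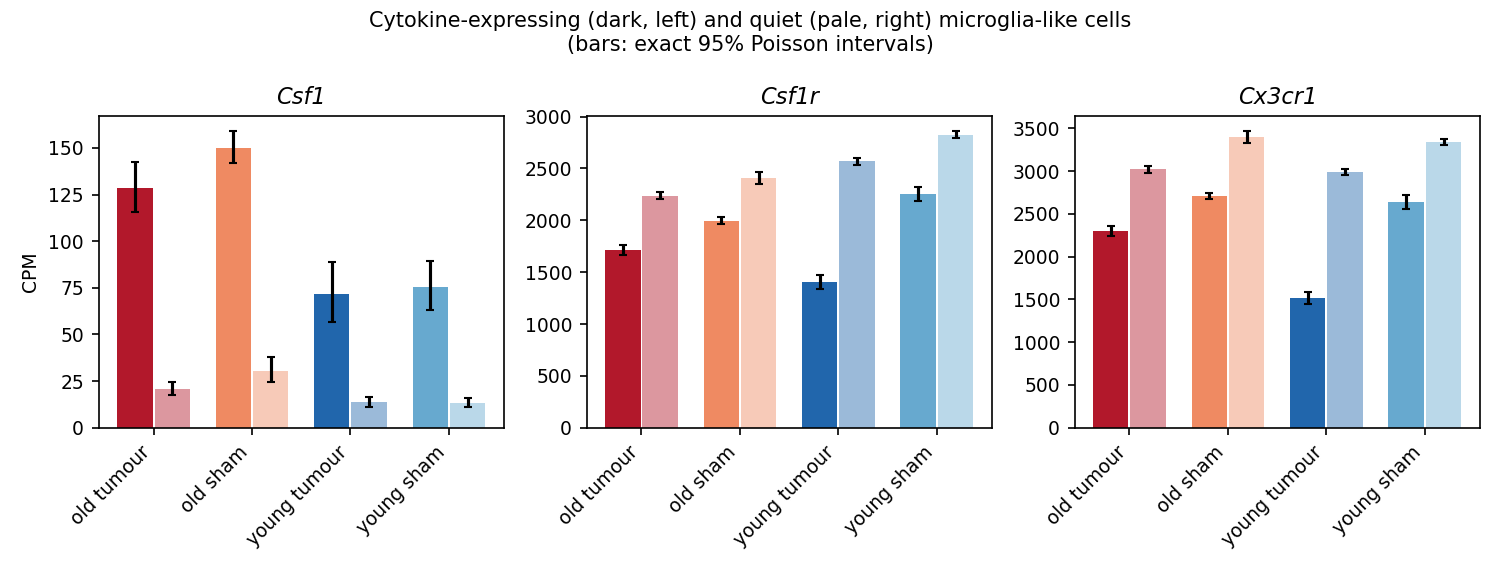
Csf1, Csf1r and Cx3cr1 (CPM) in cytokine-expressing (dark) and quiet (pale) microglia-like cells of each library, with exact 95% Poisson intervals. Csf1 is 4.911 to 6.191 times higher in cytokine-expressing than in quiet cells, and both receptor genes are below their quiet level in each library.

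Measured genes that carry or modify the receptors' signals stayed within 1.5-fold in microglia-like cells. Of all 6042 measured genes, 3.28% to 7.81% passed that bound in the 4 comparisons. A count of 0 in lists this short is near that share and does not set the lists apart. Of 15 genes of CSF1R signal transduction 14 were measured and 0 passed 1.5-fold in any of the 4 comparisons. Tyrobp, the adaptor that couples to microglial receptors, was 3915, 3429, 3473 and 3354 CPM in the old tumour, old sham, young tumour and young sham libraries. Of 12 PU.1 partner and identity factors 11 were measured and 0 passed, among them Irf8, a partner of PU.1, at 451.6, 518.2, 452.2 and 476.2 CPM. The nearest to the bound was Cebpb, a factor of inflammatory myeloid genes, at 1.424 in old sham over young sham. All 6 genes of fractalkine processing and signalling were measured and 0 passed, among them Adam10 and Adam17, whose proteases shed fractalkine. Of 11 other myeloid growth factor ligands and receptors 4 were measured and 0 passed. Of 10 homeostatic genes 2 were lower in old sham than in young sham, against 3.39% of all measured genes. They were P2ry13, a purinergic receptor, at 0.6418 and Fcrls, a microglial scavenger receptor-like gene, at 0.6002. In the other 3 comparisons 0 of the 10 passed.

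Over 56 class-by-library profiles of at least 50 cells, the genes whose log2 level followed each member best, among 14716 genes, were Lilra5, C1qa and C1qb for Csf1r (Pearson r 0.939, 0.933 and 0.932), and Trem2, C1qa and C1qb for Cx3cr1 (r 0.953, 0.945 and 0.940). They included Ncf1 and Csf2rb for Spi1 (r 0.960 and 0.954). For Il34 they included Npy1r and Arhgap6 (r 0.907 and 0.875), and for Cx3cl1 they were Arhgap44, Tmem158 and Lor (r 0.842, 0.839 and 0.821). Csf1 had the lowest best value, with Stimate, Lrig3 and Nfic at r 0.710, 0.696 and 0.689. Among the members, Csf1r and Cx3cr1 had r 0.92 and Csf1r and Spi1 r 0.81, while Csf1r and Csf1 had r -0.04. Profiles of 1 library share that library, and these values are descriptions.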

How the data were processed

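The deposited values are raw UMI counts per gene and barcode, made by the authors with Cell Ranger 6.1.0 per the file headers; the submitters' processing notes name Cell Ranger 3.0.2, Seurat 2.3.4 and mm10. Libraries used the 10x 3' v3 kit, per the labels' protocols. Barcodes with at least 500 UMIs and 200 genes and at most 20% mitochondrial UMIs were kept (44503 of 46097). Doublets were then called with Scrublet in scanpy 1.11.5 at 0.8% per 1000 barcodes and 4113 were removed. Clustering (Leiden, resolution 1) gave 33 clusters, 5 of them unnamed; of the gated cells 1042 held exactly 3 markers and 2630 were exactly 2 ahead of the next class. UMIs were summed per class and library. Ratios carry exact conditional Poisson intervals, CPM exact Poisson intervals and shares Clopper-Pearson intervals, at 95%, which cover counting error only. The ratio step was tested on simulated data. Alternatives changed the doublet, cell and marker filters, the classes, the scaling and the depth; setting apart the clusters led by Cxcl9 and Mgl2, the quiet cells and the mixed pericyte-endothelial cells was added after seeing the data. The 6 genes, the marker lists and the pathway lists were chosen with earlier results of these data known. Named genes are the 6 members, genes of those lists and the 3 genes most alike in profile to each member, of which some are not reported here. Promoters come from RefSeq tables of GRCm38.p6, where 3 of the 6 genes are used; gene positions are those of GENCODE M21.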

Additional observations from a re-analysis of the deposited data

Results flagged for a closer look

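In choroid plexus epithelium-like cells the Csf1 ratio of tumour to sham lay below 1 in old and above 1 in young brains. With 72 UMIs over the libraries, Csf1 fell short of the 100 UMIs and 20 CPM asked of a measured gene. Old tumour over old sham was 0.6071 (0.3237 to 1.153), from 25 and 20 UMIs, and young tumour over young sham was 1.691 (0.7373 to 3.908), from 14 and 13 UMIs. Both intervals span 1, the levels were 2.047, 3.372, 5.01 and 2.963 CPM in the old tumour, old sham, young tumour and young sham libraries, and the difference was not tested over replicates.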

How the results depend on the processing

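With 1 library per group no library could be left out. Depth sets the counting error, and some log2 ratios also shifted when each cell was thinned to the same depth, as given below. No paired analysis was possible because each group is 1 library. Of 160 recomputed log2 ratios of the members in microglia-like cells 0 reversed a call, 9 changed sign within the 1.5-fold bound and 1 changed side of it: Csf1 in old tumour over old sham was -0.56 in quiet cells and -1.11 in all, so that 0 members passed the bound there instead of 1. Cytokine-expressing cells were not among the 160. In them the Csf1 ratio of old tumour over old sham was 0.8562, within the bound. Their Cx3cr1 ratios passed it in young tumour over young sham (0.5736) and old tumour over young tumour (1.518). The Csf1r log2 ratio over all microglia-like cells, and in quiet cells, stayed within the bound under the alternatives run; in cytokine-expressing cells the young tumour over young sham ratio was 0.623, past it. For old tumour over old sham (-0.04) it was -0.07 when centred on the median gene and -0.11 in quiet cells. For young tumour over young sham (-0.19) it was -0.22 without doublet removal, -0.16 with 4 markers, -0.03 by cluster, -0.16 centred, -0.08 as a mean over cells, -0.10 thinned, -0.15 without mitochondrial and ribosomal protein genes, -0.02 without the clusters led by Cxcl9 and Mgl2, and -0.14 in quiet cells. For old sham over young sham (-0.34) it was -0.28 centred, -0.32 as a mean over cells, -0.31 thinned, -0.29 without mitochondrial and ribosomal protein genes and -0.23 in quiet cells. For old tumour over young tumour (-0.19) it was -0.22 with 4 markers, -0.35 by cluster, -0.29 as a mean over cells, -0.27 thinned and -0.34 without the clusters led by Cxcl9 and Mgl2. The Csf1 log2 ratio shifted too. For young tumour over young sham (-0.16) it was -0.32 as a mean over cells and -0.54 thinned. For old tumour over old sham (-1.11) it was -1.33 as a mean over cells and -1.36 thinned. In quiet cells it was 1.19 for old sham over young sham (2.15 in all) and 0.59 for old tumour over young tumour (1.20 in all). Shares of UMIs held by microglia-like cells shifted as well. In the young tumour library the Spi1 share (57.57%) was 46.35% by cluster, 52.91% without doublet removal and 72.06% thinned. The Csf1r share (87.13%) was 79.34% by cluster, 80.39% without doublet removal and 92.8% thinned. The cause of each shift was not tested.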
